A study of Homo sapiens with 12 samples.

Results

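MPAT-Seq, the mitochondrial poly(A) tail sequencing assay, was used here to read the 3′ ends of mitochondrial (mt-) tRNAs in PDE12 knockout cells expressing a PDE12 transgene and in cells with PDE12 at its endogenous level. The comparison rests on 2 of the 12 libraries of the series, and all 22 mt-tRNAs encoded by the human mitochondrial genome were read in both. The first library, PDE12+/+, came from the parental Flp-In T-REx HEK293T line, a widely used established line of embryonic kidney origin. The second, PDE12-/- + WT, came from cells of the same line in which PDE12 was knocked out with a zinc finger nuclease (1 clone), and in which a wild-type PDE12 cDNA carrying a Strep2.Flag tag was integrated and induced with doxycycline. The other MPAT-Seq libraries, used as a range and in a few further comparisons, were the same knockout without a transgene (PDE12-/-), the knockout expressing the catalytically inactive mutant (PDE12-/- + E351A), and a pair of libraries from cells overexpressing the mitochondrial poly(A) polymerase mtPAP. Labels gave passages 10-15 for all cells. The study's methods name total RNA as the input of MPAT-Seq and describe isolation of mitochondria for RNA-seq. The level of PDE12 protein is not part of these data, so whether the transgene gave more or less PDE12 than the endogenous gene was not measured here. PDE12-/- + WT and PDE12+/+ differ in clone, tag, induction and PDE12 expression together, and these cannot be told apart.

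Mitochondrial tRNAs are cut out of long polycistronic transcripts. The 3′ cut, made by the RNase Z enzyme ELAC2, falls after the discriminator base, the last base the gene encodes, and the nucleotidyltransferase TRNT1 then adds C, C and A without a template. The terminal A of this CCA end carries the amino acid, so a tRNA that lacks it cannot be charged. The polymerase mtPAP adds poly(A) tails to mitochondrial RNAs, and PDE12 is a 3′ to 5′ exoribonuclease known for removing such tails.

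The encoded 3′ ends of 13 of the mt-tRNAs on which the results turn are given here from the GRCh38 genome, each as the last 20 bases of the gene and the 5 bases that follow it in the genome, 5′ to 3′ on the strand of the gene, with the discriminator base in capitals. With transgenic PDE12, MT-TK to MT-TV lost more reads at that base than at either C, and MT-TQ to MT-TR lost most at the second C. MT-TH had more reads beyond CCA than with endogenous PDE12, and MT-TS2 and MT-TY were read with A in place of C. MT-TI gained reads with bases encoded after the gene, and MT-TN lost reads with the T encoded there.
MT-TK (chrM:8345-8369, + strand): ccaacacctctttacagtgAaatgc
MT-TG (chrM:10039-10063, + strand): acaacattcaaaaaagagtAataaa
MT-TL1 (chrM:3285-3309, + strand): ttcaattcctcttcttaacAacata
MT-TV (chrM:1651-1675, + strand): acttaacttgaccgctctgAgctaa
MT-TQ (chrM:4324-4348, - strand): ttcgattctcatagtcctaGaaata
MT-TM (chrM:4450-4474, + strand): gttatacccttcccgtactAattaa
MT-TC (chrM:5756-5780, - strand): cttcaaacctgccggggctTctccc
MT-TR (chrM:10450-10474, + strand): atgataatcatatttaccaAatgcc
MT-TH (chrM:12187-12211, + strand): cttacgaccccttatttacCgagaa
MT-TS2 (chrM:12246-12270, + strand): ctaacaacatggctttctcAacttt
MT-TY (chrM:5821-5845, - strand): ggttaggcctctttttaccAgctcc
MT-TI (chrM:4312-4336, + strand): cttaaacccccttatttctAggact
MT-TN (chrM:5652-5676, - strand): tttaagtcccattggtctaGtaagg
In none of these does the genome read cca after the discriminator base, while MT-TR encodes cca just before it. Over all 22 genes, 14 lie on the + strand and 8 on the − strand, and the discriminator base is A in 16, G in 4, and C (MT-TH) or T (MT-TC) in the others.

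Each amplicon ran from a primer inside the gene across the 3′ end into a ligated linker, so a read shows where its RNA ended. For MT-TK, the gene of mt-tRNA Lys at chrM:8295-8364, the primer was actgtaaagctaacttagcattaacc and left 43 bases up to the discriminator base. A read that covers the discriminator base but not the next position ended there, and the fall in coverage from each position to the next gives the reads ending at the first C, the second C, the A of CCA, or beyond. All shares below are percentages of the reads at the discriminator base unless another base is named. Reads ending before the discriminator base are not in these values. PDE12+/+ held 468902 reads at the discriminator base over the 22 mt-tRNAs and PDE12-/- + WT held 516410, from 226 for MT-TI in the former and 509 for MT-TY in the latter up to 82115 for MT-TM and 77528 for MT-TG. There was 1 library per condition, so no test between conditions was possible and no p-value is given. Intervals are 95% Wilson intervals for a share and Newcombe intervals for a difference. Since amplified reads are not independent molecules, both cover counting error only. A share was called different where the 2 intervals did not overlap and the shares differed at least 2-fold, with a floor of 3 reads, or by at least 10 percentage points for reads ending at the A. The mt-tRNAs of a library share its cells, RNA and PCR and are not replicates of a condition.

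With transgenic PDE12, reads ended before the A of CCA far more often than with endogenous PDE12. The median over the 22 mt-tRNAs was 37.4% in PDE12-/- + WT against 7.38% in PDE12+/+, and the median difference was 29.1 percentage points. The share was called higher for 18 of 22 mt-tRNAs (81.8%, which is also the background since every mt-tRNA was compared) and lower for 0. For 16 mt-tRNAs the share in PDE12-/- + WT lay above that in each of the other 5 libraries.

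MT-TC, which encodes mt-tRNA Cys, showed the largest difference, with 4590 of 70141 reads (6.54%) in PDE12+/+ and 25901 of 43005 reads (60.2%) in PDE12-/- + WT, a rise of 53.7 percentage points (95% interval 53.2 to 54.2). MT-TG (mt-tRNA Gly) went from 6.58% to 57.9%, and MT-TR (mt-tRNA Arg) from 6.65% to 57.6%. Reads that ended at the discriminator base or at either C are counted here as lost whatever base was read there. The counts do not show how many reads with A at the second C ended there. If as many as possible did and were not counted as lost, the share would be at its lowest. This lowest share in PDE12-/- + WT was 38.6% in MT-TC, 40.7% in MT-TR and 57.5% in MT-TG. With the lowest shares in both libraries, MT-TG showed the largest difference (51.8 percentage points). High shares were also seen for MT-TV (mt-tRNA Val; 14.2% against 52.5%) and MT-TM (mt-tRNA Met, which also starts translation; 5.82% against 51.2%). MT-TL1 (mt-tRNA Leu(UUR)) went from 10.2% to 50.9%, or to 39.6% as the lowest share. In MT-TQ (mt-tRNA Gln) the share went from 4.83% to 48.7%, but the other 4 libraries ranged from 0.126 to 66.5%, so the value with transgenic PDE12 was inside that range. MT-TL2 (mt-tRNA Leu(CUN)) went from 10.7% to 47.9%.

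A middle group of the mt-tRNAs called higher lost between 26.1% and 39.2% of reads. MT-TK (mt-tRNA Lys) had 2026 of 28011 reads (7.23%) short of the A in PDE12+/+ and 26381 of 67368 reads (39.2%) in PDE12-/- + WT. MT-TA (mt-tRNA Ala) stood at 8.59% and 39.04% in that order, and MT-TE (mt-tRNA Glu) at 7.11% and 38.7%. The shares were 8.21% and 36.04% for MT-TN (mt-tRNA Asn), 7.52% and 35.3% for MT-TI (mt-tRNA Ile), and 4.16% and 31.2% for MT-TP (mt-tRNA Pro). MT-TI had only 226 reads at the discriminator base in PDE12+/+. Its share in PDE12-/- was 39.0% (123 of 315 reads), so the value with transgenic PDE12 was not above the other libraries. MT-TF (mt-tRNA Phe) went from 4.75% to 29.2% and MT-TH (mt-tRNA His) from 9.701% to 26.1%. Every member of this group was called higher, by 2.69-fold (MT-TH) to 7.499-fold (MT-TP).

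MT-TT and MT-TW lost least among the mt-tRNAs called higher. MT-TT (mt-tRNA Thr) rose 10.3-fold, but from the lowest share of the PDE12+/+ library, 1.63%, to 16.8%. MT-TW (mt-tRNA Trp) went from 4.16% to 14.6%, a value inside the 2.41 to 23.9% of the other 4 libraries. The remaining 4 mt-tRNAs were not called. MT-TD (mt-tRNA Asp) stood at 8.77% and 12.96% and MT-TS2 (mt-tRNA Ser(AGY), which lacks the D-arm of other tRNAs) at 12.2% and 14.9%, with intervals apart but less than 2-fold between them. The MT-TD table of PDE12+/+ carried the name of MT-TT and was assigned by its gene length. MT-TS1 (mt-tRNA Ser(UCN)) stood at 33.5% and 35.4% and MT-TY (mt-tRNA Tyr) at 32.5% and 28.7%, and the intervals overlapped in both. The difference for MT-TY was -3.83 percentage points, with an interval of -8.23 to 0.809, and both MT-TY values were far above the median of the PDE12+/+ library.

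The loss was set beside the strand and the discriminator base of each gene. In PDE12-/- + WT the median was 37.2% over the 14 genes of the + strand and 37.4% over the 8 of the − strand, against 7.38% and 7.66% in PDE12+/+. It was 38.9% over the 16 mt-tRNAs with A as discriminator base and 35.7% over the other 6, and both sets spanned a wide range, 12.96 to 57.9% and 14.6 to 60.2%. The median was 42.03% over the 4 mt-tRNAs whose genes overlap a neighbour (MT-TI with MT-TQ on opposite strands, MT-TY with MT-TC on the same strand). The order of the mt-tRNAs differed between the libraries. Across the 22 mt-tRNAs the 2 sets of shares had a Pearson r of -0.0552 and a Spearman rho of -0.0175. The loss with transgenic PDE12 had a Spearman rho of -0.551 (Pearson r -0.485) with the share of reads at the A of CCA that were extended beyond it in PDE12-/-. These are descriptions over 22 mt-tRNAs that share RNA preparation and amplification within each library.

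The positions at which the lost reads ended differed between mt-tRNAs. Summed over all 22, 41.6% of the lost reads in PDE12-/- + WT ended at the discriminator base, 20.6% at the first C and 37.9% at the second C. In PDE12+/+ these were 30.4%, 28.1% and 41.6%. The position with the most lost reads was the second C in 13 mt-tRNAs, the discriminator base in 9 and the first C in 0 with transgenic PDE12, and in 7, 10 and 5 with endogenous PDE12.

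Reads ending at the discriminator base, with no base read at the CCA positions, had a median of 12.1% with transgenic PDE12 and 2.53% with endogenous PDE12. The share was called higher in 17 of 22 mt-tRNAs (77.3% of those compared). It was largest in MT-TK, at 31.8% (21396 of 67368 reads) against 3.97%, a difference of 27.8 percentage points (27.4 to 28.2). MT-TG reached 31.2% from 3.96%, MT-TL2 28.1% from 7.13% and MT-TL1 27.4% from 7.34%. In MT-TK such reads made up 81.1% of all lost reads. MT-TV went from 7.39% to 23.5%, MT-TH from 5.33% to 11.8%, MT-TE from 2.81% to 8.34% and MT-TM from 1.25% to 12.5%. MT-TC had almost none of these reads with endogenous PDE12, 0.402%, and 20.4% with transgenic PDE12, which was 50.7-fold higher. At that MT-TC position A was read in 27.9% of all reads with transgenic PDE12, against 1.89% with endogenous PDE12. The counts do not show whether the reads that ended there were among them. Taken with their sign, the 3 lowest differences were in MT-TY, MT-TS1 and MT-TW. In MT-TY the share was lower with transgenic PDE12, at 17.3% against 27.5%, with intervals apart but less than 2-fold between them. In MT-TS1, whose 254 reads in PDE12+/+ were few, it was 2.76% in that library and 0.577% in PDE12-/- + WT with overlapping intervals, and in MT-TW it was 0.0698% and 0.425%.

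Reads ending at the first C had a median of 7.44% with transgenic and 1.79% with endogenous PDE12, and were called higher in 17 mt-tRNAs (77.3%). MT-TV, at 20.3% against 4.97%, MT-TL1, at 12.2% against 0.999%, and MT-TN, at 14.3% against 3.09%, differed most. MT-TE followed with 12.3% against 1.59%. MT-TM stood at 1.55% and 8.703% in PDE12+/+ and PDE12-/- + WT, MT-TH at 2.79% and 7.87%, MT-TY at 2.58% and 5.89% and MT-TK at 1.799% and 5.28%. In MT-TS1 (10.6% and 8.65%), MT-TD (3.25% and 2.701%) and MT-TS2 (3.58% and 4.65%) the share was not called different, and MT-TT, though among the smallest differences, went from 0.0325% to 1.07%.

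Reads ending at the position of the second C rose most in MT-TQ, from 31 of 1946 reads (1.59%) to 1625 of 4218 reads (38.5%). MT-TM followed, at 30.02% against 3.03%, then MT-TR, at 25.7% against 1.08%, and MT-TC, at 29.8% against 5.66%. In PDE12-/- + WT the base read at that position was A in 24.8% of MT-TR reads and 31.2% of MT-TC reads, and the counts do not show whether the reads that ended there were among them. The median was 15.6% against 2.08%, and 18 mt-tRNAs (81.8%) were called higher. In MT-TT and MT-TF, 83.9% and 80.2% of the lost reads ended there. MT-TE went from 2.71% to 18.1%, MT-TV from 1.82% to 8.699% and MT-TH from 1.58% to 6.47%. In MT-TK, the mt-tRNA with the largest share of reads ending at the discriminator base, the second C share was 2.12% against 1.47%, less than 2-fold apart, and in MT-TS2 (5.84% and 6.06%) and MT-TD (3.22% and 4.94%) it was not called different either. In this library mt-tRNAs with a like total loss ended at different positions. MT-TQ and MT-TL2 lost 48.7% and 47.9% of reads in all, of which 10.6% and 58.7% ended at the discriminator base. The MT-TR value lay just above the 0 to 24.7% of the other 4 libraries, while MT-TQ lay inside their 0.126 to 42.5%.

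Reads ending exactly at the A of CCA, the complete length of a mature mt-tRNA, fell from a median of 80.9% with endogenous PDE12 to 49.7% with transgenic PDE12. The share was called lower in 16 mt-tRNAs (72.7%) and higher in 1 (4.55%). The largest falls were in MT-TC (91.4% to 38.00%), MT-TG (90.7% to 40.8%) and MT-TR (85.6% to 39.97%). MT-TM went from 88.6% to 45.3%, MT-TH from 87.5% to 48.3%, MT-TV from 84.6% to 46.4%, MT-TK from 85.3% to 48.7% and MT-TE from 82.3% to 57.04%. MT-TY (44.7% and 25.5%) and MT-TS2 (38.6% and 10.9%), whose total loss was not called different, also fell. MT-TN stood at 57.03% and 57.2%, with a difference of 0.1498 percentage points (-0.371 to 0.6703), and MT-TF (63.3% and 60.9%) and MT-TD (86.7% and 83.98%) were not called different. MT-TS1 alone was called higher, at 63.7% against 47.6%. This depended on the denominator. Of the reads that reached the A, the share ending there had a median of 87.2% with endogenous and 93.02% with transgenic PDE12, and on that scale 4 mt-tRNAs were called lower and 6 higher.

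Transgenic PDE12 went with fewer reads extended beyond CCA in some mt-tRNAs and with more in others. The share beyond CCA was called lower in 12 of 22 mt-tRNAs (54.5%) and higher in 2 (9.09%), with medians of 3.83% with transgenic and 12.04% with endogenous PDE12. With the reads of all mt-tRNAs summed, it was nearly the same, 11.1% with transgenic and 11.7% with endogenous PDE12. MT-TN fell most, from 34.8% (24514 of 70527 reads) to 6.77% (4636 of 68429 reads), followed by MT-TF (31.99% to 9.95%) and MT-TA (20.1% to 1.46%). MT-TE went from 10.6% to 4.22%. MT-TM (5.62% and 3.45%) and MT-TV (1.26% and 1.06%) were not called different. MT-TH rose 9.11-fold, from 2.81% (783 of 27895 reads) to 25.6% (13812 of 54007 reads), and MT-TY from 22.8% to 45.8%. Reads beyond CCA are counted by position, whatever letters were read at the CCA positions. From the base counts, at most 38.3% of MT-TY reads in PDE12-/- + WT could hold a complete CCA. Not all of its 45.8% can therefore be extensions after CCA. In MT-TN with endogenous PDE12, between 22.2 and 63.6% of reads could hold a complete CCA. How much of its 34.8% followed CCA could therefore not be read from the counts. MT-TS2 stood at 49.3% and 74.2% and MT-TK at 7.44% and 12.1%, with intervals apart but less than 2-fold between them. As shares of reads at the discriminator base, the other 4 libraries ranged from 30.05 to 97.4% for MT-TK and from 7.58 to 96.8% for MT-TH. By position, MT-TS2 and MT-TI, the latter at 55.3% and 44.3%, held far more reads beyond CCA in both libraries than the median mt-tRNA. With transgenic PDE12, at most 5.499% of MT-TS2 reads and 43.03% of MT-TI reads could hold a complete CCA. Of reads that reached the A, 9 mt-tRNAs (40.9%) were called lower and 2 higher, and MT-TK was then among the latter, at 19.9% against 8.02%. On that scale the summed share was higher with transgenic PDE12, at 18.2% against 12.7%.

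The extensions that remained had a larger mean length in most mt-tRNAs. Lengths were counted after the CCA positions, whatever letters those held. Among the 17 mt-tRNAs with at least 100 extended reads in both libraries, the mean length was larger with transgenic PDE12 in 14. Its median over these mt-tRNAs was 5.13 nt against 4.44 nt. The share of extended reads with 6 or more added nt was larger in 11 of the 17, with medians of 46.2% and 43.2%. MT-TA showed the widest gap. Its extended reads fell from 4224 to 267, while their mean length went from 2.61 to 8.24 nt and the share of them with 8 or more added nt from 0.521% to 86.5%. The mean was 4.44 and 7.04 nt in MT-TH, 5.28 and 7.63 nt in MT-TK, and 4.03 and 5.98 nt in MT-TC. It was shorter with transgenic PDE12 in MT-TI (5.94 and 4.79 nt), MT-TS2 (4.27 and 3.501 nt) and MT-TL1 (5.62 and 5.13 nt). In MT-TS2 with transgenic PDE12, at most 5.499% of reads could hold a complete CCA, so most of that length did not follow CCA. In MT-TI with transgenic PDE12, 381 of 1376 extended reads held C at the first added position, the base that the genome encodes there. In neither library did a read run more than 10 nt past CCA, and longer tails, if any, are not in these values. The means have no replicate error. Some bases other than A held nearly the same count along an extension, among them the C read in MT-TT with transgenic PDE12 at alternate added positions (158, 156 and 154 reads).

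Some reads carried A in place of C at the positions of the CCA, and such reads count above as reaching the A whatever their letters. At the first C, A was called higher with transgenic PDE12 in 6 mt-tRNAs (27.3%) and lower in 9 (40.9%), and at the second C higher in 9 (40.9%) and lower in 5 (22.7%). MT-TS2 differed most. A was read at the first C in 3587 of 12252 reads (29.3%) with endogenous PDE12 and in 23692 of 25391 reads (93.3%) with transgenic PDE12, above the 8.07 to 76.1% of the other 4 libraries, and at the second C in 28.9% and 93.8%. From the base counts, at most 5.499% of MT-TS2 reads in PDE12-/- + WT could hold a complete CCA, while in PDE12+/+ it was between 31.8 and 66.5%. The small loss of MT-TS2 before the A was thus counted over ends that mostly did not read CCA.

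MT-TY went the same way, from 144 of 1207 reads (11.9%) to 199 of 421 reads (47.3%) with A at the first C, and from 15.7% to 49.9% at the second C. Its discriminator base is also the first base of MT-TC, the next gene on the same strand. MT-TL1 had A at the first C in 76 of 4358 reads (1.74%) with endogenous and in 2262 of 7928 reads (28.5%) with transgenic PDE12, against 1.85 to 3.03% in the other 4 libraries. Smaller rises to between 3.72% and 4.91% were called for MT-TE, MT-TP and MT-TT. MT-TV stood at 0.547% and 1.02%, MT-TK at 2.97% and 2.41%, MT-TM at 1.03% and 0.496% and MT-TH at 3.02% and 1.46%. In the opposite direction, MT-TS1 fell from 111 of 247 reads (44.9%) to 2 of 517 reads (0.387%), MT-TQ from 14.6% to 0.7498% and MT-TN from 12.5% to 1.69%. In MT-TS1, A was also the base read at the discriminator position, which is G in the gene, in 121 of 254 reads with endogenous PDE12 and in 9 of 520 with transgenic PDE12. At the second C, MT-TR (1.59% to 24.8%) and MT-TC (6.697% to 31.2%) rose, while at the first C they stood at 5.74% and 3.77% and at 1.56% and 0.672%.

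**Figure D1:**
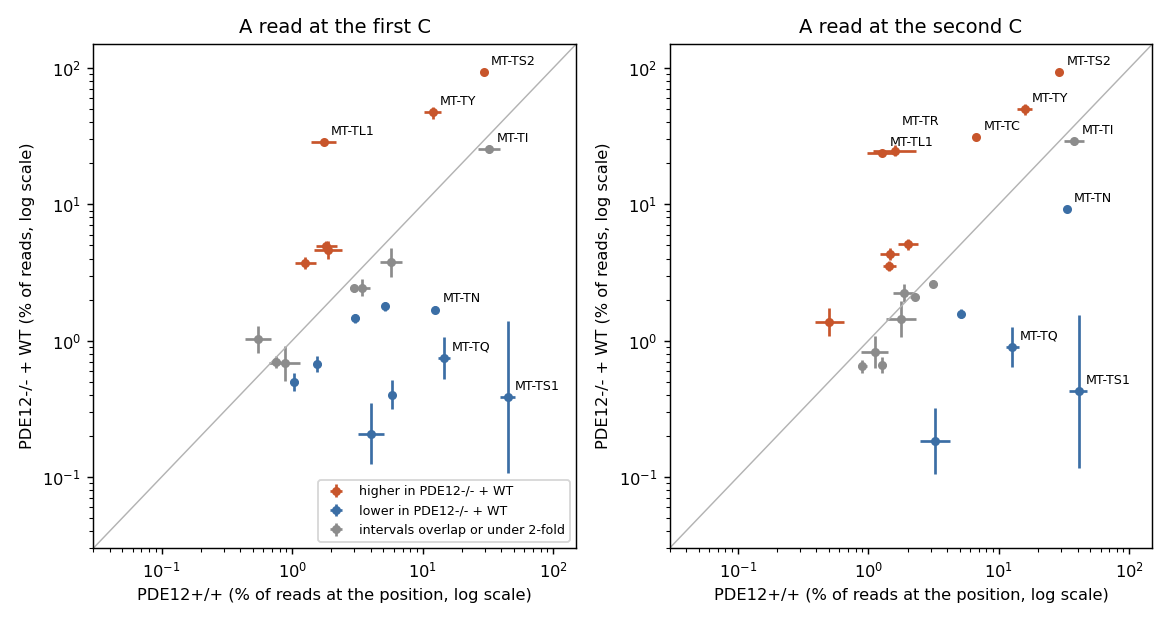
Percentage of reads with A at the first C (left) and the second C (right) of CCA for each mt-tRNA, PDE12+/+ (x axis) against PDE12-/- + WT (y axis), on log scales, with 95% Wilson intervals; orange points are called higher and blue points lower with transgenic PDE12. MT-TS2, at 29.3% and 93.3% at the first C, and MT-TS1, at 44.9% and 0.387%, lie on opposite sides of the diagonal.

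The letters at the discriminator base itself moved furthest from the encoded base in MT-TC and MT-TR. Some mt-tRNAs moved toward it. The encoded G was read in 86.7% and 99.3% of MT-TQ reads with endogenous and transgenic PDE12. For MT-TN these shares were 87.03% and 96.6%, and for MT-TS1 50.8% and 98.3%. In MT-TC, where the gene encodes T, that base was T in 93.1% of reads with endogenous PDE12 and in 33.7% with transgenic PDE12, where C made up 38.3% and A 27.9% (against 4.85% and 1.89%). In the other 4 libraries C ranged from 7.53 to 49.8% and A from 0.332 to 3.67%, so the share of C was inside and that of A outside their range. In MT-TR, where the gene encodes A after the bases cca, C was read in 2 reads (0.1199%) with endogenous and in 456 reads (22.8%) with transgenic PDE12, and in at most 0.274% of reads of the other 4 libraries. In both mt-tRNAs the rise of C at the discriminator base stood beside the rise of A at the second C and of reads ending there. The files give counts per position, so whether the same reads carried all of these could not be read from them. Over the 21 mt-tRNAs whose discriminator base is not C, that letter was called higher in 6 (28.6%) and lower in 3 (14.3%), and apart from MT-TC and MT-TR it stayed at or under 1.69% with transgenic PDE12, with MT-TK at 1.27% against 0.114%.

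Reads that ran into the bases encoded after the gene were assessable only where the next base is G or T, since an added C or A cannot be told from an encoded one, which left 9 mt-tRNAs. The encoded base was called higher with transgenic PDE12 in 1 of 9 (11.1%) and lower in 4 (44.4%). In MT-TI, the encoded G was read in 1 of 213 reads with endogenous and in 352 of 2553 (13.8%) with transgenic PDE12, and the next position, also G in the genome, held 352 G reads there as well. Further positions, encoded as C and T, held 381 C and 271 T reads. The other 4 libraries ranged from 0.163 to 9.68% for that G. MT-TN went the other way. Its encoded T was read in 16362 of 70127 reads (23.3%) with endogenous and in 5232 of 66074 (7.92%) with transgenic PDE12. At the first position beyond CCA, where the genome encodes G after MT-TN, 202 of 24514 reads in PDE12+/+ held G and 23766 held A. Few of the MT-TN reads that long thus held the encoded base there. MT-TP fell from 11.3% to 3.62%, MT-TA from 1.504% to 0.0753% and MT-TH from 0.186% to 0.0105%. In MT-TN the fall of the encoded T stood beside the fall of reads beyond CCA.

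Set against the libraries of the same knockout clone in place of PDE12+/+, the loss before the A was called higher with transgenic wild-type PDE12 in 19 mt-tRNAs against PDE12-/- and in 21 against PDE12-/- + E351A, with median differences of 28.8 and 33.2 percentage points. These comparisons and the main one share the PDE12-/- + WT library. The median loss itself was 3.86% in PDE12-/- and 3.59% in PDE12-/- + E351A, below the 7.38% of PDE12+/+. MT-TY, not called against PDE12+/+, had 20.3% of reads short of the A in PDE12-/- and 6.44% in PDE12-/- + E351A, against 28.7% in PDE12-/- + WT.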

How the data were processed

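MPAT-Seq data of 2 libraries were compared, 1 per condition, and 4 more MPAT-Seq libraries gave ranges; the 6 RNA-seq samples were not used here. Per the study's methods, the authors ligated a linker to RNA 3′ ends (the labels speak of circularization), amplified each mt-tRNA with a gene-specific primer, removed primers with cutadapt, and aligned reads with Bowtie2 to GRCh38-based references with N bases added at the 3′ ends. Tool versions are not given in the sources used here, which describe no molecular identifiers. The deposited tables hold, per mt-tRNA, raw read counts (no normalization) covering each position from the discriminator base on, with the counts of A, C, G and T.

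From these counts, shares were computed in Python 3.11.15 with SciPy 1.17.1, using 95% Wilson and Newcombe intervals. A call needed intervals apart and a 2-fold difference with a floor of 3 reads, or 10 percentage points for reads ending at the A of CCA. The steps were tested on simulated counts. Gene ends came from GENCODE on GRCh38. In PDE12+/+ a second table named MT-TT was taken as MT-TD by gene length, and a table named MT-TS was taken as MT-TS1. The MT-TH tables are numbered from 70 while the gene has 69 bases; their first letters read C, C, C and A, the discriminator base and CCA. Among the other libraries, MT-TY tables that start 1 base early were shifted, the C counts of MT-TQ in PDE12-/- were recomputed from the totals, and the pair of mtPAP libraries was used without genotype because the sources disagree on it. All 22 mt-tRNAs are described with their loss, and in depth those with the 3 largest and the 3 smallest differences of each measure and MT-TK, MT-TH, MT-TS2, MT-TE, MT-TM, MT-TV and MT-TY. The mt-tRNAs, measures and alternatives were chosen with earlier results of these data known. The alternatives were a minimum of 500 reads, leaving out tables with another name or first position, intervals alone, other denominators, reads and comparison libraries. Others were added after seeing the data. These were dividing counts by 10 or 100, and leaving out mt-tRNAs with over 5% of other bases at the discriminator base. A last one, also added then, was the lowest loss possible with no read with A at the second C counted as lost.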

Additional observations from a re-analysis of the deposited data

How the results depend on the processing

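No paired analysis was possible because each MPAT-Seq condition has 1 library and no result comes from a test. Calls of a higher loss before the A of CCA, 18 as reported, ranged from 16 of 22 (1 in 100 reads counted) to 21 of 22 (against PDE12-/- + E351A) over the alternatives with all 22 mt-tRNAs, and numbered 14 of 16, 17 of 19, 17 of 20 and 18 of 21 where some were left out. In all, 50 of the 64 values recomputed stayed within 1.5 times the reported count or within the interval of the median difference. The median difference was 29.1 percentage points (28.5 to 29.8, the mean bounds of the 2 mt-tRNAs in the middle). It was 31.0 with at least 500 reads (without MT-TI and MT-TS1) and 31.6 without MT-TD, MT-TH and MT-TS1. When only A counted at the last position it was 30.9, and with all reads summed 31.6. Without reads with A at the second C (MT-TS2 could not be computed) it was 32.4. With these reads not counted as lost, the lowest share possible in each library gave 27.9. Of reads reaching the A, 4 mt-tRNAs in place of 16 had a lower share ending there, since lost reads leave that denominator. Had 1 in 100 reads been an independent molecule, calls would number 9 in place of 17 at the discriminator base, 7 in place of 17 at the first C, 10 in place of 18 at the second C, 9 in place of 16 at the A, 2 in place of 6 and 3 in place of 9 for A at the first and the second C, and 3 in place of 12 beyond CCA, while 16 in place of 18 stayed for the loss. Depth limits MT-TI and MT-TS1 in PDE12+/+ and MT-TY and MT-TS1 in PDE12-/- + WT most, and without a further library per condition the spread between cultures is unknown.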
